A study of Mus musculus with 6 samples.

Results

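The Wnt signaling ligands and targets described here are 10 genes, Wnt4, Wnt5a, Wnt9a, Sfrp1, Ctnnb1, Tcf7, Lef1, Axin2, Nkd1 and Lgr5, chosen by symbol from the 56980 genes of the deposited expression matrix, and all 10 were found. They were measured by RNA sequencing of tumor-associated macrophages (TAMs) in 6 libraries, 3 from wild-type (WT) C57BL/6 mice and 3 from C5aR-/- mice on the same background, which lack the receptor of complement C5a. The mice were females, purchased at an age of 6 to 8 weeks. All of them then received an intraperitoneal injection of ID8 cells, a mouse ovarian epithelial cancer cell line, 2 months before the tumors were taken. Both groups received the same ID8 line, so the knockout was in the host. The sort kept live CD45+CD11b+Ly6G-F4/80+ cells, and the labels do not say whether a library came from 1 mouse or from a pool. The study names more mice per group for this experiment than there are libraries here. The p-values therefore measure only the spread between these libraries.

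Wnt proteins are secreted lipid-modified ligands that bind Frizzled receptors with the co-receptors LRP5 and LRP6. In the canonical branch the signal stops a cytoplasmic destruction complex from degrading β-catenin, which then enters the nucleus and works with the TCF and LEF factors on target genes. Several of these targets, among them Axin2, Nkd1, Rnf43 and Notum, encode inhibitors of the pathway, so their mRNA is widely used as a readout of canonical signaling in a tissue.

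Values are TPM, transcript abundances scaled per length and per library, which can be compared between genes. How deeply each library was sequenced cannot be read from TPM, so the counting error of single values is not known. C5ar1, the targeted gene, was at a TPM of 16.2 to 86.5 in WT TAMs and of 0.05 to 0.38 in C5aR-/- TAMs. The libraries held RNA of cells other than macrophages. The 10 macrophage markers, led by Lyz2 and C1qa, summed to a TPM of 2575 to 8920 in WT and of 2564 to 8759 in C5aR-/- TAMs, while the 8 epithelial tumor markers, led by Krt8 and Krt18, summed to 977 to 1065 and to 1263 to 1569, and the 9 mesothelial markers, led by Krt19 and Wt1, to 2113 to 2715 and to 1213 to 2089. In bulk RNA, fewer cells of a type and less RNA per cell cannot be told apart. C5aR-/- TAM 1 and C5aR-/- TAM 3 were the least alike of the libraries within a group. Their correlation over log2(TPM + 1) was 0.886, below the lowest between a WT and a C5aR-/- library (0.904). This value alone does not tell which of them is the unusual library. These correlations are across genes, which are not independent replicates. Values that rest on C5aR-/- TAM 1 are given with and without it.

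The canonical feedback genes Axin2, Nkd1 and Lgr5 were lower in every C5aR-/- library than in every WT library, whereas the ligands Wnt4, Wnt5a and Wnt9a, the transcription factors Tcf7 and Lef1 and the β-catenin gene Ctnnb1 overlapped between the groups. With limma on log2(TPM + 1), 0 of the 9 tested members and 0% of the 14776 tested genes (0 genes) reached an adjusted p under 0.05 together with a 2-fold change, while 2133 genes had an unadjusted p under 0.05 at any fold. When the p was left unadjusted at 0.05 and the fold kept, 3 of the 9 tested members passed, all lower in C5aR-/- TAMs, against 4.96% of all tested genes (2.84% lower and 2.13% higher). The same 3 were the members whose groups did not overlap, against 21.3% of all tested genes (12.5% lower and 8.84% higher in C5aR-/- TAMs). The median log2 difference of the 9 members was -0.20, and that of all tested genes was -0.05. The members' median was -0.55 without C5aR-/- TAM 2, -0.42 without WT TAM 1 and -0.40 without C5aR-/- TAM 3. It was -0.22 without WT TAM 3, -0.15 without C5aR-/- TAM 1 and -0.15 without WT TAM 2. Without C5aR-/- TAM 1, Nkd1 alone passed the unadjusted threshold, because the differences of Axin2 and Lgr5 became smaller than 2-fold (limma, -0.95 with an unadjusted p of 0.0119 and -0.84 with an unadjusted p of 0.00928).

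**Figure D1:**
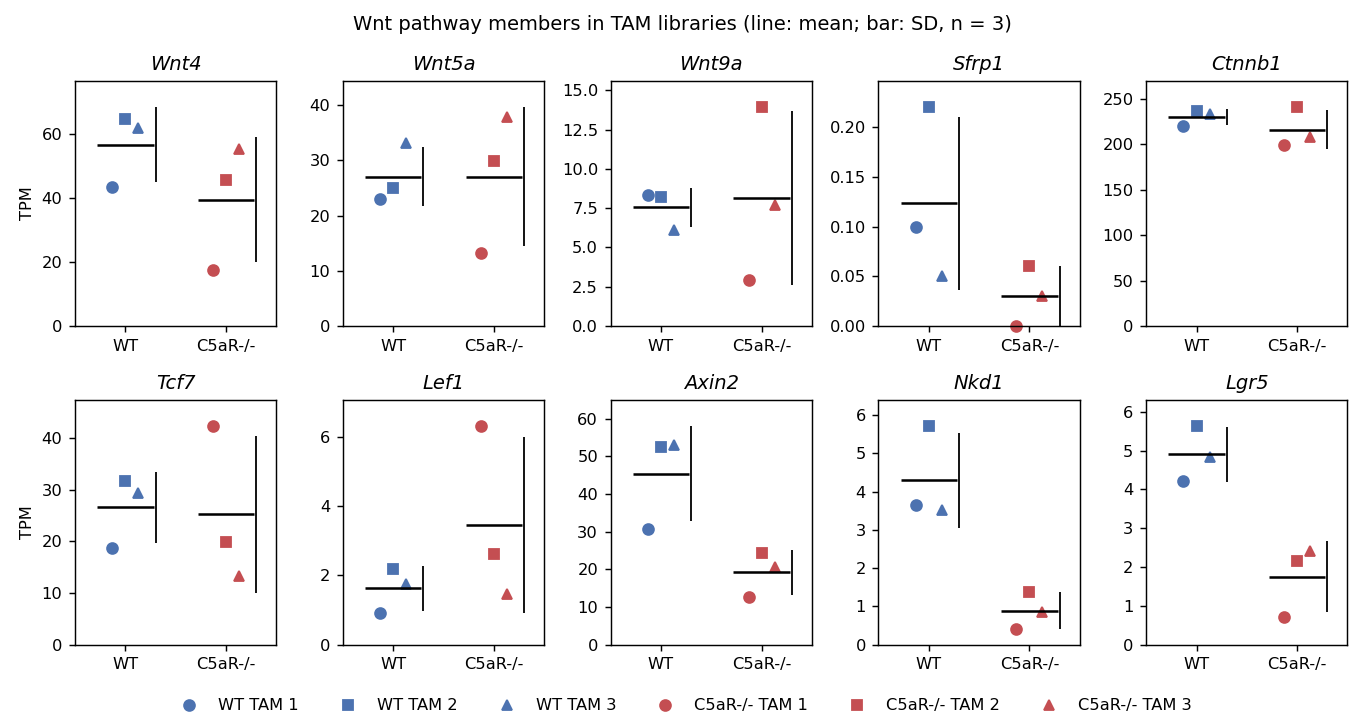
Level of the 10 Wnt genes in TPM on linear axes that start at 0, with 1 marker per library, the mean as a line and the SD (n = 3) as a bar. Axin2, Nkd1 and Lgr5 have all 3 C5aR-/- libraries below the WT libraries, and C5aR-/- TAM 1 is the lowest of the 6 libraries in 7 of the 9 tested genes.

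The promoters of Axin2 and Nkd1 are shown because both genes were lower together in C5aR-/- TAMs and are direct targets of the TCF and LEF factors. The lines give the 250 bases before the RefSeq start (GRCm38.p6, 5′ to 3′ on the strand of the gene) of Axin2 (chr11:108920099-108920348, plus strand) and Nkd1 (chr8:88527383-88527632, plus strand, inside the GENCODE gene, whose longest transcript starts farther upstream), and of Tnfrsf19 (chr14:61037988-61038237, minus strand), another Wnt target described further on. Capitals mark CTTTG followed by AA, AT, TA or TT on either strand, the core that TCF and LEF factors bind.
Axin2: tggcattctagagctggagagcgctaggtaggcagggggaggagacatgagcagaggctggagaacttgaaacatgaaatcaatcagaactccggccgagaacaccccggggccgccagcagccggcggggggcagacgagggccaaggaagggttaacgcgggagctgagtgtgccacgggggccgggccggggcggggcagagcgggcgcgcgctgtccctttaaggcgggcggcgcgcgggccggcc
Nkd1: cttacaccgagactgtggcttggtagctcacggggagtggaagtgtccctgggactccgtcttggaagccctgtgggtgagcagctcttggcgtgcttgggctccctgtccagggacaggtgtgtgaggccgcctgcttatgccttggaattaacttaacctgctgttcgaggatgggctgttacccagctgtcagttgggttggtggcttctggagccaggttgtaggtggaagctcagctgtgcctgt
Tnfrsf19: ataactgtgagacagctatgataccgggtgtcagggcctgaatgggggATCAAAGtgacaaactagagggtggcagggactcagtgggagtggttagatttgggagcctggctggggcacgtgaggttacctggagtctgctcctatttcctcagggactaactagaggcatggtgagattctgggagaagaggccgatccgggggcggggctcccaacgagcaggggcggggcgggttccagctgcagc
The Axin2 and Nkd1 sequences held 0 matches. The single match of Tnfrsf19 is the CTTTGAT form on the opposite strand and lies 202 to 196 bases before the start. Where Tnfrsf19 had more than 1 start, a start with a match was taken, whereas Axin2 and Nkd1 had 1 window each. The match of Tnfrsf19 is thus an example and no comparison with those genes. Over windows of 300 bases that also hold the first 50 bases of the transcript, 1 of 12 member windows held a match (8.33%), against 16.9% of all 32851 windows in RefSeq. That window belonged to 1 of the 4 starts of Lef1. Windows were at hand for 7 of the 10 members, and Wnt5a, Sfrp1 and Lgr5 had no entry. The letters describe the windows and do not show where a factor binds.

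Axin2 (ENSMUSG00000000142, GRCm38 chr11:108920349-108950783, plus strand) encodes a scaffold of the destruction complex and is a direct target of β-catenin. Its TPM was 30.8, 52.4 and 53.0 in the 3 WT TAM libraries and 12.6, 24.4 and 20.5 in the 3 C5aR-/- libraries, in the order of the library numbers. The lowest WT value thus lay above the highest C5aR-/- value. Mean TPM was 45.4 ± 12.7 in WT against 19.1 ± 6.01 in C5aR-/- TAMs (SD, n = 3), so WT TAMs were 2.37-fold higher. The log2 difference was -1.21 (standard error 0.31, limma, unadjusted p = 0.00633, adjusted p = 0.177, two-sided exact permutation p = 0.1, the smallest that 3 libraries against 3 allow).

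Nkd1 (ENSMUSG00000031661, chr8:88521354-88594884, plus strand) encodes a protein that binds Dishevelled and dampens Wnt signaling. It was at a TPM of 3.64, 5.72 and 3.52 in WT and of 0.41, 1.38 and 0.85 in C5aR-/- TAMs, which did not overlap. Its mean was 4.29 ± 1.24 in WT and 0.88 ± 0.49 in C5aR-/- TAMs (SD, n = 3), a 4.88-fold higher level in WT. Of the tested members Nkd1 had the largest log2 difference (-1.50, standard error 0.30, limma, unadjusted p = 0.00164, adjusted p = 0.118, exact permutation p = 0.1). It reached a TPM of 1 in 1 C5aR-/- library only, so it passed the filter through the WT libraries.

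Lgr5 (ENSMUSG00000020140, chr10:115450311-115587780, minus strand) encodes a receptor for R-spondins, which strengthen Wnt signaling, and is a target gene best known from intestinal stem cells. The WT libraries held a TPM of 4.22, 5.64 and 4.84 and the C5aR-/- libraries 0.70, 2.15 and 2.41. C5aR-/- TAM 1 was the lowest here as for Axin2 and Nkd1, and the other C5aR-/- libraries also stayed under the lowest WT value. The log2 difference was -1.16 (standard error 0.32, limma, unadjusted p = 0.00906, adjusted p = 0.205, exact permutation p = 0.1), and the mean in WT TAMs was 2.79-fold higher.

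Among the ligands, Wnt4 (ENSMUSG00000036856, chr4:137277489-137299726, plus strand), which is known for its part in the development of the female reproductive tract, was the most abundant member with the exception of Ctnnb1. Its TPM was 43.4, 64.9 and 62.0 in WT and 17.6, 45.5 and 55.3 in C5aR-/- TAMs. C5aR-/- TAM 1 was far below the rest, and the other C5aR-/- libraries lay within the WT range. The log2 difference of -0.64 had a 95% interval from -1.64 to 0.36 (limma, adjusted p = 0.532), and without C5aR-/- TAM 1 it was -0.15.

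Wnt5a (ENSMUSG00000021994, chr14:28504750-28527448, plus strand) acts mostly through the branch that does not need β-catenin. It was at 23.0, 25.1 and 33.2 TPM in WT and at 13.2, 30.0 and 37.9 TPM in C5aR-/- TAMs. The group means of 27.1 and 27.0 differed by less than the spread between replicates (log2 difference -0.11, 95% interval from -1.01 to 0.80, limma, adjusted p = 0.923). Wnt9a (ENSMUSG00000000126, chr11:59306928-59333552, plus strand), a ligand of the canonical branch known from joint and blood stem cell development, had a TPM of 8.32, 8.23 and 6.13 in WT and of 2.90, 13.9 and 7.67 in C5aR-/- TAMs. The C5aR-/- group thus held both the lowest and the highest Wnt9a level, and the difference was -0.09 (95% interval from -1.22 to 1.04, limma, adjusted p = 0.947). For both genes the sign turned without C5aR-/- TAM 1 (0.32 for Wnt5a and 0.42 for Wnt9a), and for Wnt5a also without WT TAM 3 (0.04). The intervals leave room for a change of 2-fold in either direction for Wnt9a and of 2-fold downward for Wnt5a.

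Sfrp1 (ENSMUSG00000031548, chr8:23411502-23449632, plus strand), a secreted protein that binds Wnt ligands and keeps them from their receptors, was near 0 in all 6 libraries. Its TPM was 0.10, 0.22 and 0.05 in WT and was listed at 0, 0.06 and 0.03 in C5aR-/- TAMs. The groups overlapped, and Sfrp1 was the 1 member under the filter (a TPM of 1 in 3 or more libraries), so it was not tested by limma.

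Ctnnb1 (ENSMUSG00000006932, chr9:120929216-120960507, plus strand) encodes β-catenin, which is controlled mostly at the protein level and is also a part of adherens junctions. Its TPM was 220, 237 and 233 in WT and 200, 241 and 208 in C5aR-/- TAMs, with overlapping groups. The log2 difference was -0.09, with the smallest standard error of the tested members (0.12) and a 95% interval from -0.39 to 0.20 (limma, adjusted p = 0.769), which does not reach 2-fold in either direction.

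Tcf7 (ENSMUSG00000000782, chr11:52252371-52283014, minus strand) and Lef1 (ENSMUSG00000027985, chr3:131110471-131224356, plus strand) encode the DNA-binding partners of β-catenin and are also well known in T cells. Tcf7 was at a TPM of 18.8, 31.7 and 29.4 in WT and of 42.4, 19.9 and 13.3 in C5aR-/- TAMs. Lef1 was at 0.91, 2.19 and 1.76 in WT and at 6.32, 2.61 and 1.45 in C5aR-/- TAMs. Both were highest in C5aR-/- TAM 1, the library with the lowest level of the other 7 tested members. Neither difference exceeded the spread (Tcf7 -0.20, 95% interval from -1.20 to 0.81, adjusted p = 0.865, and Lef1 0.65, 95% interval from -0.40 to 1.70, adjusted p = 0.547, limma). Without C5aR-/- TAM 1 the difference of Tcf7 was -0.64 (limma, unadjusted p = 0.0648) and without C5aR-/- TAM 3 it was 0.16. Without C5aR-/- TAM 1 that of Lef1 was 0.22.

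The 12 T cell markers, led by Trbc2 and Cd2, summed to a TPM of 73.9, 140 and 177 in WT and of 145, 84.7 and 37.6 in C5aR-/- TAMs, and 0 of them were at 0 in all libraries. As with Tcf7, WT TAM 1 was the lowest WT library for this sum, and C5aR-/- TAM 1 was above C5aR-/- TAM 2 and 3. The highest sum, in contrast, was that of WT TAM 3. Not every marker followed the sum, as Cd2 was at 27.5, 22.9 and 16.1 in WT TAMs. Of the 12 markers, 10 had a lower mean in C5aR-/- TAMs. The 8 B cell markers, led by Ighm and Cd79a, summed to 92.6 to 530 in WT and to 37.2 to 479 in C5aR-/- TAMs, lower in mean in 7 of 8. Their part in the levels of Tcf7 and Lef1 was not tested.

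In WT TAMs the order of the mean levels was Ctnnb1, Wnt4, Axin2, Wnt5a, Tcf7, Wnt9a, Lgr5, Nkd1, Lef1 and Sfrp1. The libraries of Wnt4 and Axin2 overlapped, as did those of Wnt5a and Tcf7 and those of Lgr5 and Nkd1. In C5aR-/- TAMs, Axin2 moved from the third to the fifth place, below Wnt5a and Tcf7, although its 3 libraries overlapped with theirs. Over all tested genes, C5aR-/- TAM 1 was the lowest of the 6 libraries in 25.2% and the highest in 21%. For C5aR-/- TAM 3 these shares were 28.2% and 24%. Among the 9 tested members C5aR-/- TAM 1 was the lowest in 7 and the highest in 2, and C5aR-/- TAM 3 was the lowest in 1 and the highest in 1.

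**Figure D2:**
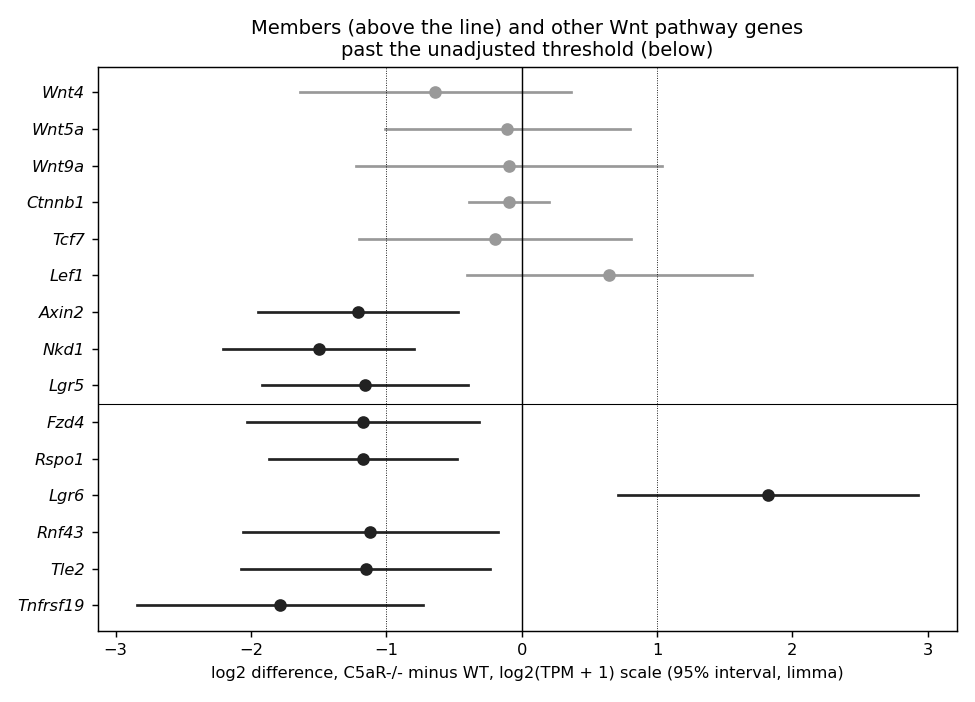
Log2 difference between C5aR-/- and WT TAMs on the log2(TPM + 1) scale (x axis), with its 95% interval from limma, for the 9 tested members above the line and for the 6 other Wnt pathway genes past the unadjusted threshold below it. Black marks genes past that threshold, gray those that were not, and dotted lines mark a 2-fold change. Of the members, Axin2, Nkd1 and Lgr5 have intervals below 0.

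The other genes of the pathway were taken from 8 lists that hold 94 genes, of which 63 were tested and 10 were listed at 0 in all libraries. In C5aR-/- TAMs 32 of the 63 were higher and 31 lower. Their median log2 difference was 0.02. At the unadjusted threshold 1 was higher and 5 were lower, against 2.13% and 2.84% of all tested genes. The groups did not overlap in 16 of them (9 lower and 7 higher), where 21.3% of all tested genes had such groups.

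The genes that act on R-spondin signaling held 3 of these 6. Rspo1, a secreted agonist whose product binds the LGR receptors, was at a TPM of 73.8, 121 and 158 in WT and of 60.1, 47.6 and 41.6 in C5aR-/- TAMs (a difference of -1.17 on the log2 scale, standard error 0.29, limma, unadjusted p = 0.00559, adjusted p = 0.170). Rnf43, a membrane ubiquitin ligase that removes Frizzled receptors and is itself a Wnt target, was at 30.5, 40.5 and 45.8 in WT and at 21.5, 26.2 and 8.75 in C5aR-/- TAMs (-1.12, adjusted p = 0.284, limma). Both were lower in all C5aR-/- libraries. Lgr6, the receptor most like Lgr5, went the other way, with 0.65, 1.08 and 0.72 in WT and 12.1, 4.35 and 2.72 in C5aR-/- TAMs (1.82, standard error 0.47, adjusted p = 0.177, limma), and it passed the filter mainly through the C5aR-/- libraries. Of the 5 tested genes of this list 4 were lower, with a median of -0.65 that was -0.38 without C5aR-/- TAM 3.

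Among the 11 tested receptor genes, Fzd4 was past the unadjusted threshold, at 11.2, 15.3 and 14.8 in WT and 9.23, 5.79 and 2.95 in C5aR-/- TAMs (-1.17, adjusted p = 0.232, limma). Lrp5, a co-receptor named after its values were seen, was at 16.0 ± 1.50 in WT and 27.2 ± 1.28 in C5aR-/- TAMs (SD, n = 3), a difference of 0.73 that was under 2-fold (unadjusted p = 0.00154, adjusted p = 0.116, limma). The median of the receptor list was -0.03, with 5 genes higher and 6 lower.

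Of the 11 tested nuclear factors, Tle2, a corepressor that TCF factors recruit, was past the unadjusted threshold (12.4, 20.0 and 11.0 in WT, 3.01, 6.84 and 8.76 in C5aR-/- TAMs, -1.15, adjusted p = 0.265, limma). Of the 6 tested genes in the list of other targets, 4 were higher and 2 lower, among them the cell cycle gene Ccnd1 (-0.01) and the transcription factor gene Sp5 (0.11), both named after their values were seen. The 1 past the unadjusted threshold was lower. This gene, Tnfrsf19, which encodes the receptor TROY, was at 5.52, 9.54 and 2.22 in WT and at 1.09, 0.72 and 0.50 in C5aR-/- TAMs (-1.79, standard error 0.44, unadjusted p = 0.00550, adjusted p = 0.170, limma). It reached a TPM of 1 in 1 C5aR-/- library, so like Nkd1 it passed the filter through the WT libraries. Myc, a growth-promoting transcription factor with many inputs beside Wnt and named after its values were seen, was at 125, 118 and 80.5 in WT and at 245, 155 and 230 in C5aR-/- TAMs. Its groups did not overlap either, but with C5aR-/- TAMs on the higher side (0.96, under 2-fold, adjusted p = 0.177, limma). Apcdd1, a target in this list that encodes a membrane inhibitor of the pathway, was also named after its values were seen. It was at 2.17, 1.57 and 0.67 in WT and at 1.32, 7.31 and 8.13 in C5aR-/- TAMs, with overlapping groups. Unlike Axin2 and Nkd1, it had a higher mean in C5aR-/- TAMs (1.23, unadjusted p = 0.0688, adjusted p = 0.387, limma).

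In the remaining 4 lists 0 genes were past the unadjusted threshold. Of the 7 other tested ligands, the most abundant were Wnt11, mostly known for the branch without β-catenin, and Wnt6. Wnt11 was at 65.1, 63.5 and 62.0 in WT and at 101, 129 and 149 in C5aR-/- TAMs, apart between the groups and just under 2-fold (0.96, standard error 0.16, unadjusted p = 0.000742, adjusted p = 0.0937, limma). Wnt6 was at 66.3 ± 9.37 in WT and 51.3 ± 12.6 in C5aR-/- TAMs (SD, n = 3, -0.38, adjusted p = 0.448). Wls, which carries Wnt proteins to the cell surface, was at 137 ± 13.2 and 105 ± 22.1, and Porcn, which adds their lipid, at 2.38 ± 0.60 and 3.69 ± 2.27 (SD, n = 3). Of the 5 tested antagonists 4 were lower, with a median of -0.70 that did not hold under other settings (-0.02 with no filter, 0.10 with a TPM minimum of 5, -1.23 with a pseudocount of 0.1 and -0.21 without C5aR-/- TAM 3). The most abundant were Kremen1, a membrane receptor for Dickkopf proteins (12.8 ± 2.34 and 12.5 ± 1.72), and the secreted Sfrp4 (8.26 ± 3.62 and 9.82 ± 3.70). Notum, a secreted enzyme that removes the lipid of Wnt proteins and is a Wnt target, was at 6.62, 9.78 and 3.19 in WT and at 0.95, 3.36 and 3.18 in C5aR-/- TAMs. Its groups overlapped, and its difference of -1.09 was just outside the unadjusted threshold (95% interval from -2.19 to 0.01, unadjusted p = 0.0513, adjusted p = 0.349, limma). Among the 16 tested cytoplasmic genes, which include the destruction complex, the median was 0.04. Csnk1a1, the kinase that primes β-catenin for degradation, was at 159 ± 6.11 and 177 ± 9.82, and Csnk1e was at 79.0 ± 11.2 and 114 ± 19.5 (SD, n = 3).

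**Figure D3:**
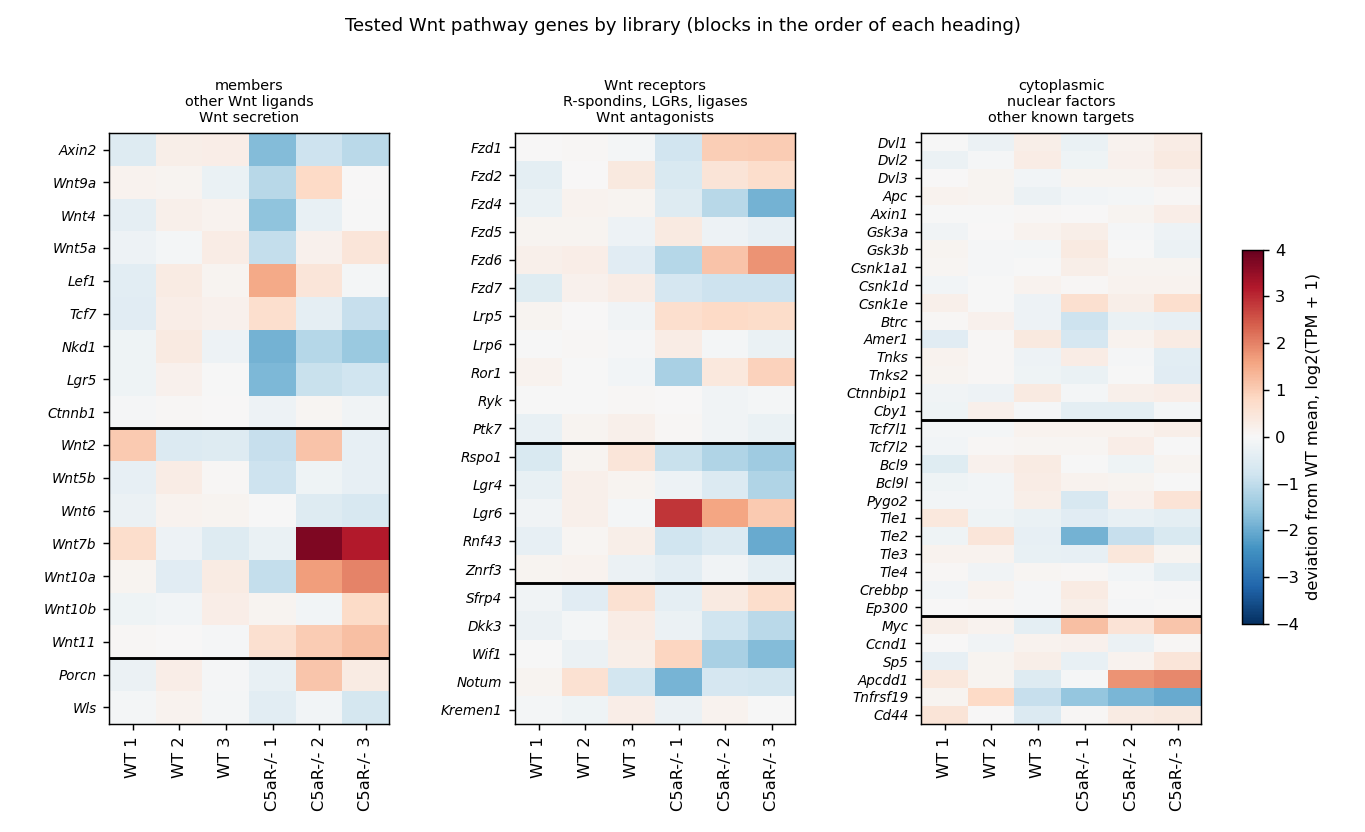
Deviation of each tested Wnt pathway gene from its WT mean in log2(TPM + 1) (color, blue lower and red higher), by library (columns) and list (blocks, in the order of each heading). Among others, Axin2, Nkd1, Lgr5, Rspo1, Rnf43, Fzd4, Tle2 and Tnfrsf19 are blue in all 3 C5aR-/- libraries. Wnt7b and Wnt10a are red in C5aR-/- TAM 2 and 3 and not in C5aR-/- TAM 1.

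The C5aR-/- libraries differed among themselves in further genes of the pathway, named after their values were seen. Wnt7b was at 0.34 to 2.13 TPM in WT TAMs and at 0.58, 24.3 and 16.1 in C5aR-/- TAMs. Wnt10a was at 9.20 to 16.8 in WT and at 6.31, 43.6 and 54.2 in C5aR-/- TAMs. C5aR-/- TAM 1 was thus at or below the WT level for both ligands, and the other C5aR-/- libraries were above it. With all libraries neither passed (Wnt7b 2.20, adjusted p = 0.388, and Wnt10a 0.90, adjusted p = 0.624, limma). Without C5aR-/- TAM 1, 7 pathway genes outside the members were higher at the unadjusted threshold (Wnt7b, Wnt10a, Wnt11, Fzd1, Fzd6, Lgr6 and Apcdd1) and 5 were lower (Fzd4, Rspo1, Rnf43, Wif1 and Tnfrsf19), against 4.19% higher and 4.38% lower of all tested genes in that fit. Of these, 5 also passed at an adjusted p under 0.05, all higher, against 1.52% higher and 0.887% lower of all tested genes. They were Wnt7b (3.44, adjusted p = 0.0210), Wnt10a (1.82, adjusted p = 0.0307), Wnt11 (1.11, adjusted p = 0.0187), the receptor gene Fzd1 (just over 2-fold, adjusted p = 0.0311) and Apcdd1 (1.87, adjusted p = 0.0463), a membrane inhibitor of the pathway (limma). No member passed the adjusted threshold in that fit, and Tle2 no longer passed the unadjusted one (-0.78). In the main fit and under every other alternative, 0 pathway genes passed the adjusted threshold. The fit without C5aR-/- TAM 1 was singled out here with the values known, and Wnt7b and Wnt10a were low in that library. Its adjusted p-values depend on that choice and cannot count as a separate test of these genes. Single libraries also decided other calls at the unadjusted threshold. Fzd4 (-0.81) did not pass without C5aR-/- TAM 3, Rspo1 (-0.93) without WT TAM 3, Tle2 (-0.91) without WT TAM 2, and Rnf43 without WT TAM 2 (-1.08), without WT TAM 3 (-0.99) or without C5aR-/- TAM 3 (-0.67).

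Some marker lists of other cell types had sums that did not overlap between the groups, and others overlapped. The sums of the mesothelial markers did not overlap and were lower in C5aR-/- TAMs. Of the 9 mesothelial markers, 8 had a lower mean in C5aR-/- TAMs, and 5 of them (Upk3b, Upk1b, Lrrn4, Gpm6a and Muc16) had all C5aR-/- libraries below the WT libraries, whereas Msln was higher in all of them. The 8 mast cell markers, led by Kit and Hdc, summed to 170 to 200 in WT and to 68.5 to 90.1 in C5aR-/- TAMs. Kit was higher in C5aR-/- TAMs (54.7, 68.0 and 85.4) and made up most of their sums. The other 7 had all C5aR-/- libraries below the WT libraries, with Hdc at 70.7 ± 12.8 in WT and 6.09 ± 3.43 in C5aR-/- TAMs (SD, n = 3). The 7 neutrophil markers, led by S100a9 and S100a8, summed to 628 to 2310 and to 31.0 to 389, lower in 7 of 7. The sums of the epithelial tumor markers did not overlap and were higher in C5aR-/- TAMs, with 3 of 8 markers higher in mean. The 9 fibroblast markers, led by Dcn and Col1a1, summed to 414 to 649 in WT and to 448 to 570 in C5aR-/- TAMs, with 7 lower and 2 higher in mean. Col1a1 alone was at 3.52, 7.13 and 10.8 in WT and at 1.21, 43.3 and 236 in C5aR-/- TAMs. The 8 endothelial markers, led by Flt1 and Pecam1, summed to 26.5 to 33.6 and to 26.2 to 37.8, with 5 higher and 3 lower in mean. In each of these lists 0 markers were at 0 in all 6 libraries. The part of these cells in the lower Axin2, Nkd1, Lgr5, Rspo1, Rnf43, Fzd4, Tle2 and Tnfrsf19 was not tested.

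**Figure D4:**
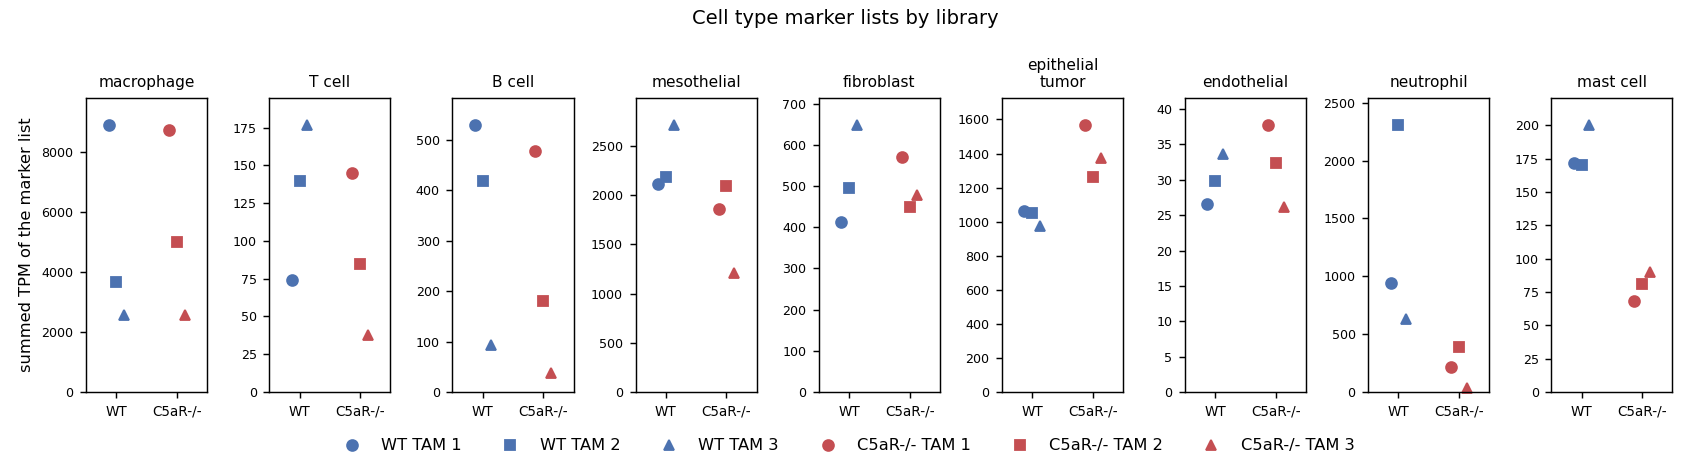
Summed TPM of 9 cell type marker lists in each library on linear axes that start at 0, with 1 marker shape per library number. The mast cell, neutrophil and mesothelial sums are lower and the epithelial tumor sums higher in all 3 C5aR-/- libraries, and the T cell sum of C5aR-/- TAM 1 (145) lies above those of C5aR-/- TAM 2 and 3.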

How the data were processed

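Gene expression was measured in 6 libraries of flow-sorted TAMs from ID8 tumors, mapped to the WT and C5aR-/- groups by the sample titles. The authors sequenced poly(A) RNA and processed the reads with fastp, HISAT2 (alignment) and StringTie (expression estimates), and they deposited TPM values per gene. The submitters' processing notes also name RSEM, DESeq2 and the build mm10, and give no versions. Count tests cannot be run on TPM, so limma was used. Columns with the authors' group means were not used.

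Symbols were matched for 52073 of 56980 gene IDs, and gene positions were taken from GENCODE M21 (GRCm38, the same assembly as mm10). The filter kept the 14776 genes that reached a TPM of 1 in 3 or more of the 6 libraries. Differences were fitted with limma 3.58.1 in R 4.3.3 (lmFit, eBayes with trend) on log2(TPM + 1), which understates changes of low genes, with Benjamini-Hochberg adjustment over all tested genes. Permutation tests on TPM were exact and two-sided (scipy 1.17.1). The fit was checked on simulated data.

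The members and lists were chosen with earlier results of these data known. Named are the members, C5ar1, the pathway genes past the unadjusted threshold (p under 0.05 and a 2-fold change), or otherwise the 2 most abundant of their list, and the 2 most abundant genes of each marker list. Genes named after their values were seen are marked as such. As alternatives, the fit was repeated with the replicate number as a block, eBayes without trend, a pseudocount of 0.1, a TPM minimum of 5 or none, median-of-ratios scaling or quantile normalization, and leaving out each library in turn over the same 14776 genes.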

Additional observations from a re-analysis of the deposited data

How the results depend on the processing

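Under all 13 alternatives Axin2 stayed lower in C5aR-/- TAMs, and so did Nkd1 and Lgr5 under the 12 that tested them. Their log2 differences were from -1.46 to -0.95, from -1.69 to -1.31 and from -1.34 to -0.84 with 1 library left out, and under the other alternatives Nkd1 was from -2.26 (pseudocount of 0.1) to -1.36. None passed an adjusted p of 0.05 (limma, 0.109 to 0.607, 0.0763 to 0.489 and 0.109 to 0.640 over the alternatives). With 1 library left out, the sign was not stable for Wnt9a (-0.55 to 0.42), Wnt5a (-0.40 to 0.32) and Tcf7 (-0.64 to 0.16), and the cause was not tested. The count of 3 lower members became 1 (Axin2) with a TPM minimum of 5, under which Nkd1 and Lgr5 were not tested, and leaving out 1 library gave 1 to 3, the lowest without C5aR-/- TAM 1. Of the other pathway genes, the 5 lower became 3 to 6 and the 1 higher became 1 to 7 with 1 library left out, the latter highest without C5aR-/- TAM 1. The 1 higher was 2 with no filter, 3 with median-of-ratios scaling and 0 with that minimum. Over all genes, the adjusted count of 0 was 2 with eBayes without trend and from 0 to 356 with 1 library left out, and the unadjusted count of 733 was 475 with a TPM minimum of 5, which left fewer genes to test, and from 567 to 1266 with 1 library left out, both highest without C5aR-/- TAM 1. The labels do not say that the libraries are paired by their numbers. Same-numbered libraries correlated at 0.19, -0.01 and 0.27 in their deviations from the group means, and the other pairs at -0.23 to 0.09. So few values cannot decide whether the numbers pair the libraries. The standard error of Axin2 was 0.14 with the replicate block and 0.31 without it (limma, unadjusted p = 0.000473 and 0.00633, adjusted p = 0.109 and 0.177). With the replicate block 3 members were lower at the unadjusted threshold, and 0 genes in all passed the adjusted and 811 the unadjusted threshold. Depth is unknown, so its effect on Nkd1, Lef1, Lgr5 and Sfrp1, the members of lowest TPM, could not be given.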
